A study of Mus musculus with 5 samples.

Results

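The genes described here handle fatty acids in lung macrophages: *Fabp1*, *Fabp4*, *Fabp5*, *Cd36*, *Lpl*, *Cidec*, *Plin2*, *Acaa1b*, *Mgll* and *Pnpla2*. They are 10 of the 28693 features in the count tables, matched by gene symbol, and they were selected on their levels across macrophage types and libraries of these same data, so those levels are a description and carry no test. The data are 5 droplet scRNA-seq libraries of lung cells from *Ms4a3-CreER;R26-tdT* mice, labelled as immune cells, made with 10X Genomics 3′ chemistry. The PBS library came from mice given PBS in place of bleomycin, and the other 4 libraries came from lungs taken 3, 7, 14 and 28 days after bleomycin was instilled into the airways, which injures the lung and is followed by fibrosis. All 5 groups carry both alleles. *Ms4a3* is a gene of granulocyte and monocyte progenitors, so the tamoxifen-dependent recombinase marks cells of monocyte origin that were exposed to tamoxifen, and the added feature RFP was taken as the tdT reporter, which neither the labels nor the methods state. The labels give neither how many mice were in a library nor when tamoxifen was given. The strain was a C57BL6/129 mixture, and adult mice of both sexes were used.

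Alveolar macrophages (AMs) live in the airspace and clear surfactant, which is rich in lipid, and they take up, store and break down large amounts of fatty acid. CD36 and lipoprotein lipase bring fatty acids to the cell, the small FABP proteins bind them in the cytosol, and perilipins and CIDE proteins coat and enlarge the droplets in which triglyceride is kept. ATGL and monoglyceride lipase release the fatty acids again, and mitochondria and peroxisomes oxidize them.

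Of 52800 barcodes, 44772 passed the limits on genes, UMIs and mitochondrial share, and libraries held 89769386 to 167506186 UMIs. The day 7 library stood apart with exactly 10000 barcodes, none of which had fewer than 4624 UMIs, while the minimum elsewhere was 500 to 502. Of 44546 distinct kept barcode sequences, 226 occurred in 2 or more libraries. Cells were gated one by one from marker genes, which gave 10941 AMs, 516 AMs with high *Gpnmb*, *Mmp12* and *Mfge8* (Gpnmb-high AMs), 1213 cycling AMs, 3090 interstitial macrophages with high C1q genes (C1q IMs), 2510 Gpnmb-high C1q IMs and 1428 Gpnmb-high macrophages with low alveolar and C1q genes. A further 1131 early recruited macrophages, 959 classical monocytes and 364 nonclassical monocytes were gated, and 11048 cells met no gate. The AM gate held 4808 cells in the PBS library, 631 on day 3, 1427 on day 7, 1490 on day 14 and 2585 on day 28. In AMs all 10 alveolar markers were at 10 CPM or more in every library, with a summed level of 15033 to 23622 CPM, whereas the 8 C1q IM markers summed to 27.0 to 339 CPM. Against the label of immune cells, 360 epithelial cells, 155 endothelial cells and 218 fibroblasts were gated as well. Levels are CPM, for which all UMIs of a gated type in 1 library were added up and a gene's count was divided by that total and scaled to 1000000. The 3′ assay counts molecules, so CPM needs no correction for gene length. There is 1 library per time point, so no difference between time points was tested, and intervals cover counting error only.

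*Fabp1*, *Cidec* and *Acaa1b* had the narrowest distribution, as they were high in AMs and near the background in C1q IMs of every library. *Fabp1* encodes a fatty acid-binding protein best known from liver and gut (GRCm38 chromosome 6, 71199827 to 71205023, plus strand). In AMs its level was 443 CPM (95% Poisson interval 439 to 448) in the PBS library, 185 on day 3, 96.6 on day 7, 71.6 on day 14 and 70.5 (68.2 to 72.9) on day 28. The PBS library was the highest, and the day 14 and day 28 libraries were the lowest with overlapping intervals. In C1q IMs *Fabp1* was at 15.9 CPM in the PBS library and between 0.567 and 2.20 CPM after bleomycin. B cells, which should lack this gene, held 33.4 CPM in the PBS library and 0.794 to 2.94 CPM in the others, so the level in C1q IMs cannot be told from free RNA. In Gpnmb-high C1q IMs on day 3 no *Fabp1* UMI was found, which allows up to 0.780 CPM. With cells thinned to 2000 UMIs, 48.0% of AMs in the PBS library and 11.5% on day 28 had a *Fabp1* UMI (87.6% and 43.8% without thinning).

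*Cidec* encodes a protein that enlarges lipid droplets by passing lipid between them (chromosome 6, 113424634 to 113435760, minus strand). In AMs it was at 313 CPM in the PBS library, 152 on day 3, 106 on day 7, 119 on day 14 and 185 on day 28. The lowest level was on day 7, and the day 28 level lay between those of day 3 and PBS. C1q IMs had 0.425 to 7.06 CPM, next to 0.794 to 9.71 CPM in B cells.

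*Acaa1b* encodes a thiolase, the enzyme of the last step of peroxisomal fatty acid oxidation (chromosome 9, 119148023 to 119157093, minus strand). Its level in AMs was 251 CPM in the PBS library, 89.1 on day 3, 55.5 on day 7, 55.9 on day 14 and 122 on day 28. The levels of day 7 and day 14 were the lowest, and the day 28 level lay between those of day 3 and PBS. C1q IMs had 0.567 to 7.06 CPM. Its paralog *Acaa1a* lies 183 kb away, and the last 500 bases of their transcripts are 90.7% identical over the 450 aligned bases, so that some reads may be hard to assign between the pair.

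The 300-base promoters of these genes are shown, from 250 bases before to 50 after the transcript start (RefSeq, GRCm38.p6). They were picked for the narrow distribution of the 3 genes over macrophage types. Over the libraries the genes differed, as in AMs *Fabp1* was among its lowest levels on day 28. *Cidec* and *Acaa1b* were then above their levels of day 7. The capitals mark the best match to the direct repeat AGGTCANAGGTCA, the element that PPAR and RXR receptors bind, searched on both strands with N free and overlapping matches allowed.
Fabp1, chr6:71199629-71199928, plus strand: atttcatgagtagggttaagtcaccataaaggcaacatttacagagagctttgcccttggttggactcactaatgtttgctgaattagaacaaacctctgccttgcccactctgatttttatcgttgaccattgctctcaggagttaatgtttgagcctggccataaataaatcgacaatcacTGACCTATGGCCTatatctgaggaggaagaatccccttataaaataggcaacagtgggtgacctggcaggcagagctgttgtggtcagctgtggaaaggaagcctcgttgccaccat
Cidec, chr6:113435711-113436010, minus strand: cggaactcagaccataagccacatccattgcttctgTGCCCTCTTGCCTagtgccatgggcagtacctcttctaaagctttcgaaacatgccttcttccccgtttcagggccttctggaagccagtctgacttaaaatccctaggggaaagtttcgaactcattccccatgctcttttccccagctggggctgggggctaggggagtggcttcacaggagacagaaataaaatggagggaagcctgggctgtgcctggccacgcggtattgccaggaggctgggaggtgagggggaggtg
Acaa1b, chr9:119157044-119157343, minus strand: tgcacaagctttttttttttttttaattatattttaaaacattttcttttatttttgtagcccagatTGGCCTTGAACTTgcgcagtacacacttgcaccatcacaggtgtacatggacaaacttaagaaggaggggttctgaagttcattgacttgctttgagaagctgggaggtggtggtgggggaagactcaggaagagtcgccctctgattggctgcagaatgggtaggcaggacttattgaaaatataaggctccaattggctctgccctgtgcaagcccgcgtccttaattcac
In *Fabp1* the match lies 67 bases before the start and differs from the repeat at 1 of 12 counted bases, as in 0.554% of 32841 promoters at this limit. The matches in *Cidec* and *Acaa1b* differ at 3 and 4 bases, which 24.6% and 79.8% of promoters reach. Among the other members, *Plin2* (GGACCCCTGACCT) and *Cd36* (TGGCCTCTGACTT) each held a match with 2 differences, found in 3.86% of promoters. The windows of *Mgll* and *Pnpla2* had 4 and 5 differences. Promoter entries were found for 7 of the 10 members, with none for *Fabp4*, *Fabp5* and *Lpl*. A match of letters is a description and does not show binding.

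**Figure D1:**
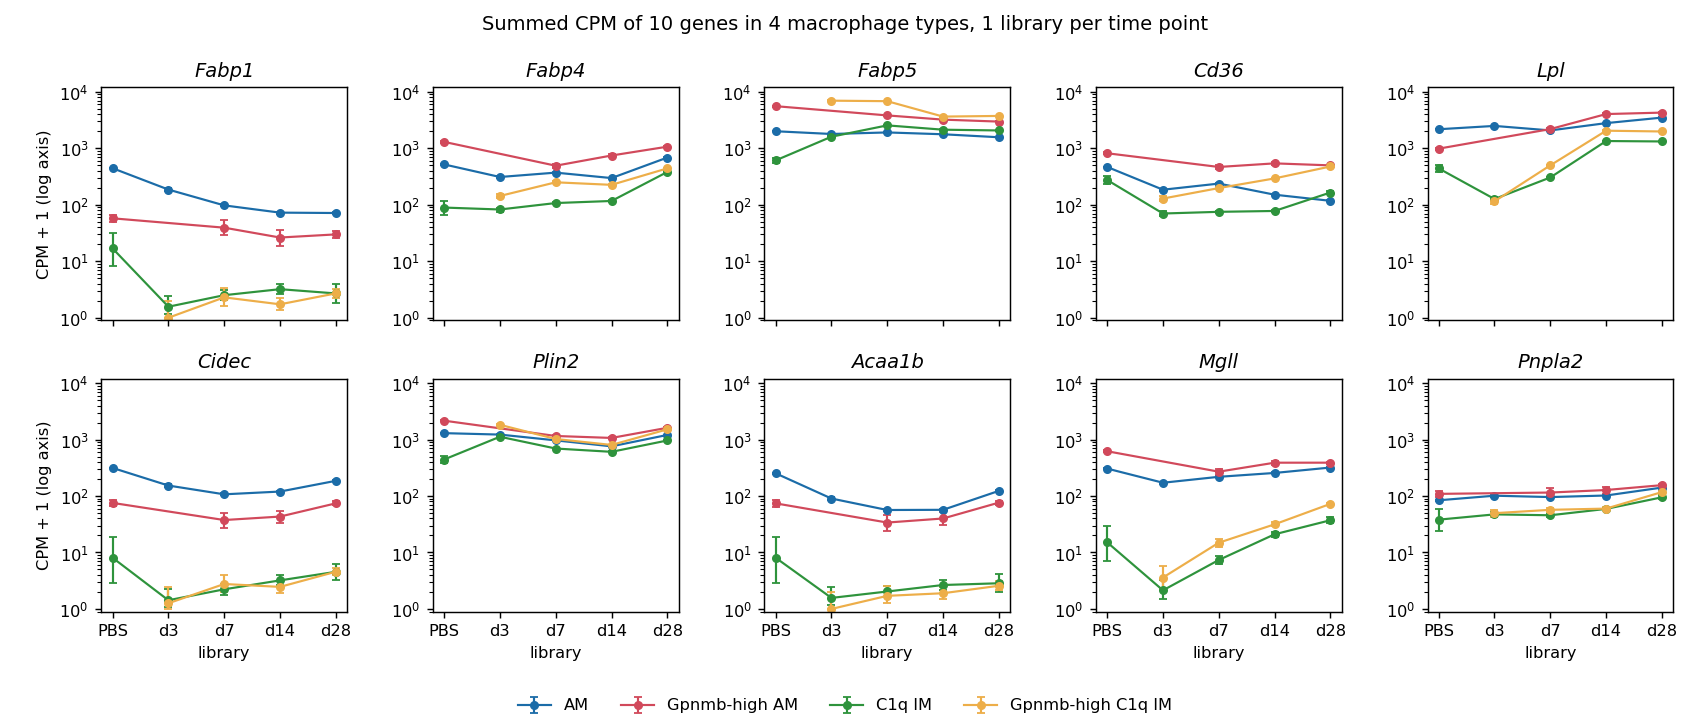
Summed CPM (plus 1, log axis) of the 10 genes in each library for AMs, Gpnmb-high AMs, C1q IMs and Gpnmb-high C1q IMs, where a type had 20 cells or more. Bars are 95% Poisson intervals. *Fabp1*, *Cidec* and *Acaa1b* lie below 20 CPM in both kinds of IM, while *Fabp5* and *Plin2* are at 441 CPM or more in all 4 types.

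*Cd36*, *Fabp4*, *Fabp5* and *Lpl*, which bring in or bind fatty acids, were found in more macrophage types. *Cd36*, the scavenger receptor and fatty acid translocase (chromosome 5, 17781690 to 17888801, minus strand), was at 467 CPM in AMs of the PBS library, 184 on day 3, 236 on day 7, 150 on day 14 and 117 on day 28. Its level was higher in Gpnmb-high AMs, at 816 CPM in the PBS library, 466 on day 7, 540 on day 14 and 498 on day 28. C1q IMs had 274 CPM in the PBS library, 69.0 to 76.7 CPM from day 3 to day 14 and 164 CPM on day 28. At day 28 AMs were thus the lowest of these types, 1.41-fold below C1q IMs. *Cd36* is also a gene of capillary endothelium, and gated endothelial cells had 648 to 2490 CPM in the 3 libraries with 20 or more of them. In AMs the 6 endothelial markers used here summed to 25.6 to 32.7 CPM, and whether endothelial RNA adds to *Cd36* there was not tested.

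*Fabp4* (chromosome 3, 10204088 to 10208576, minus strand) and *Fabp5* (10012548 to 10016607, plus strand), the fatty acid-binding proteins named for adipocytes and skin, are neighbours 187 kb apart with unlike levels. *Fabp4* in AMs was at 518 CPM in the PBS library, 309 on day 3, 370 on day 7, 296 on day 14 and 685 on day 28. The day 28 library was the highest and those of day 3 and day 14 the lowest. Gpnmb-high AMs had 491 to 1299 CPM, and C1q IMs 81.5 to 116 CPM up to day 14 and 380 CPM on day 28. Adipocyte markers summed to at most 3.08 CPM in AMs.

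*Fabp5* in AMs moved little, with 2004 CPM in the PBS library, 1792 on day 3, 1909 on day 7, 1771 on day 14 and 1568 on day 28. Its highest levels were outside these AMs, and Gpnmb-high AMs had 2971 to 5571 CPM. Gated dendritic cells held 1643 to 4260 CPM. Gpnmb-high C1q IMs had 6973 CPM on day 3, 6830 on day 7, 3643 on day 14 and 3743 on day 28, and Gpnmb-high macrophages with low alveolar and C1q genes had 3318 to 6676 CPM. Classical monocytes on day 3 held 1384 CPM, compared with 201 CPM in the PBS library.

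*Lpl*, which splits triglyceride of lipoproteins outside the cell (chromosome 8, 68880491 to 68907448, plus strand), was the most abundant member in AMs by CPM in every library. Its level was 2174 CPM in the PBS library, 2491 on day 3, 2072 on day 7, 2791 on day 14 and 3496 on day 28. In C1q IMs *Lpl* was at 440 CPM in the PBS library, 125 on day 3 and 304 on day 7, but 1344 on day 14 and 1322 on day 28. The late libraries were also the high ones in Gpnmb-high macrophages with low alveolar and C1q genes, with 3071 CPM on day 14 and 3688 on day 28 against 353 to 615 CPM earlier. B cells had 103 and 142 CPM in the late libraries and 14.0 to 75.5 CPM in the others.

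*Plin2*, the coat protein of lipid droplets in most cells (chromosome 4, 86648386 to 86670060, minus strand), was at 1295 CPM in AMs of the PBS library, 1221 on day 3, 964 on day 7, 755 on day 14 and 1204 on day 28. The low point was on day 14. It was broad, with 441 to 1118 CPM in C1q IMs, 800 to 1821 CPM in Gpnmb-high C1q IMs and 1065 to 2155 CPM in Gpnmb-high AMs. Of its levels in C1q IMs, that of day 3 was the highest and that of the PBS library the lowest.

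*Mgll* and *Pnpla2* release fatty acids from stored lipid and differed from each other in distribution. *Mgll*, monoglyceride lipase (chromosome 6, 88724412 to 88828360, plus strand), was at 305 CPM in AMs of the PBS library, 171 on day 3, 217 on day 7, 255 on day 14 and 318 on day 28. In C1q IMs it was at 14.1 CPM in the PBS library, 1.13 on day 3, 6.36 on day 7, 19.97 on day 14 and 36.2 on day 28, with 4.29 to 23.5 CPM in B cells. *Pnpla2*, which encodes ATGL, the lipase of the first step (chromosome 7, 141455198 to 141460743, plus strand), was at 82.9 CPM in AMs of the PBS library, 100.2 on day 3, 94.7 on day 7, 101 on day 14 and 140 on day 28, and C1q IMs had 37.1 to 93.8 CPM. B cells held 20.6 to 34.5 CPM of *Pnpla2*.

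**Figure D2:**
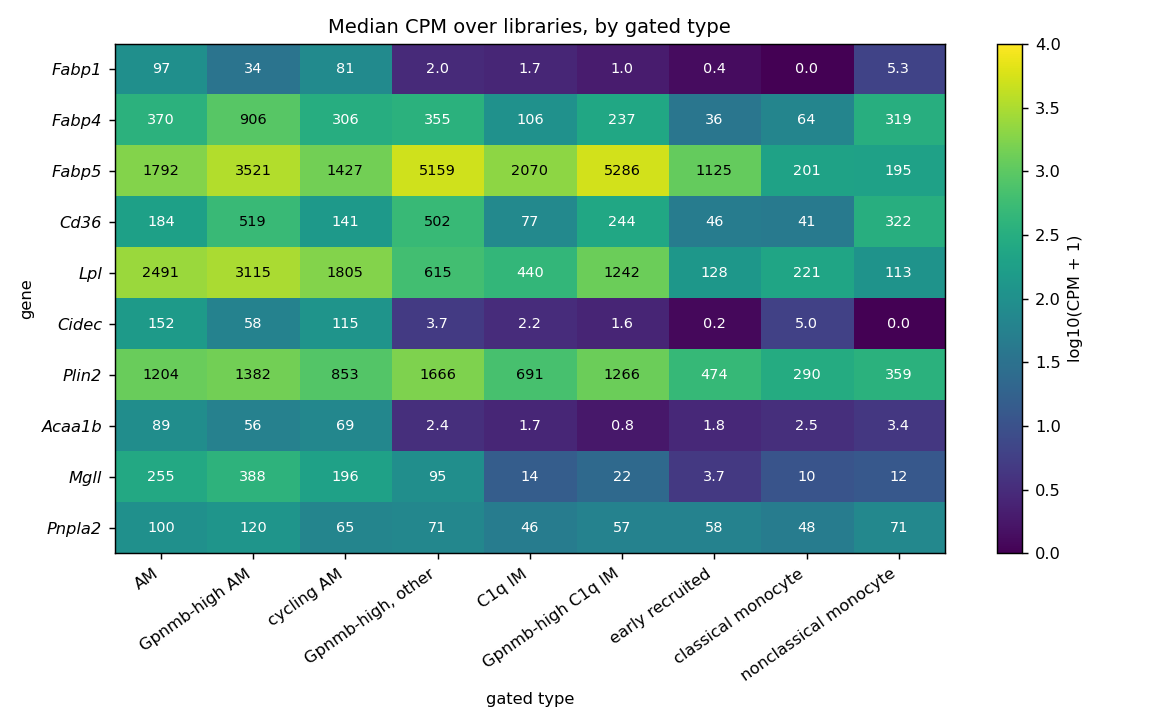
Median over libraries of the summed CPM of each gene (rows) in each gated macrophage or monocyte type (columns), with the colour on a log10(CPM + 1) scale and the median printed in each cell. *Fabp1*, *Cidec* and *Acaa1b* are highest in the 3 AM columns, and *Fabp5* is brightest in the Gpnmb-high columns.

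Within libraries, 5 members (*Fabp1*, *Cidec*, *Acaa1b*, *Mgll* and *Lpl*) were at least 2-fold higher in AMs than in C1q IMs of every library, a rule that 4.60% of the 12069 genes tested in this contrast met. *Fabp4*, *Plin2* and *Pnpla2* were also higher in AMs of all 5 libraries but by less in some of them, which makes 8 of 10 members (29.3% of all genes). No member was lower in AMs of every library (18.0% of all genes). Because the members were selected on these levels, the counts are not a result about them. The ratio was 27.9-fold for *Fabp1* in the PBS library and 32.5-fold to 326-fold after bleomycin, where it rests on 4 to 48 UMIs in C1q IMs. For *Lpl* it was 4.95-fold in the PBS library, 19.9-fold on day 3, 6.82-fold on day 7, 2.08-fold on day 14 and 2.65-fold on day 28. *Fabp5* was 3.29-fold higher in AMs of the PBS library but lower in AMs on day 7, day 14 and day 28, by 1.33-fold, 1.21-fold and 1.32-fold. The C1q IMs of the PBS library were only 49 cells.

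In AMs, each bleomycin library was compared with the PBS library, counting a gene when it differed at least 2-fold and reached 50 CPM in either. At day 3, 4 of 10 members were lower (*Fabp1*, *Cd36*, *Cidec* and *Acaa1b*), where 2.16% of 3387 genes were lower and 5.34% higher. Here *Cidec* was just past the limit at 2.06-fold, and with cells thinned to 2000 UMIs 2 members were lower. At day 7, *Fabp1*, *Cidec* and *Acaa1b* were lower, with 2.00% of 3305 genes lower and 2.39% higher, and *Cd36* fell just short of the limit at 1.98-fold lower. At day 14 the same 4 members as on day 3 were lower, with 2.56% of 3432 genes lower and 3.41% higher. At day 28 *Fabp1*, *Cd36* and *Acaa1b* were lower, with 3.67% of 3406 genes lower and 3.32% higher. Here *Acaa1b* was just past the limit at 2.06-fold, its log2 ratio lying between -1.06 and -0.79 over the alternatives. No member was 2-fold higher at any day, and the nearest to it were *Pnpla2* (1.69-fold) and *Lpl* (1.61-fold) on day 28. These values chose the members, so nothing is read from the counts. The widest ratio was that of *Fabp1* on day 28, 6.29-fold lower (log2 ratio -2.65, 95% interval -2.70 to -2.60), and that of *Cd36* on the same day was 4.01-fold lower. The median log2 ratio of all genes lay between -0.07 and -0.02. The 4 comparisons share the PBS library. The markers of the AM gate moved between the same libraries. In AMs the 5 fibrotic macrophage markers summed to 1519 CPM in the PBS library and 3658 to 8789 CPM after bleomycin, the 8 C1q IM markers to 27.0 and 170 to 339 CPM, and the 10 alveolar markers to 23622 and 15033 to 18127 CPM. Their part in these ratios was not tested.

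**Figure D3:**
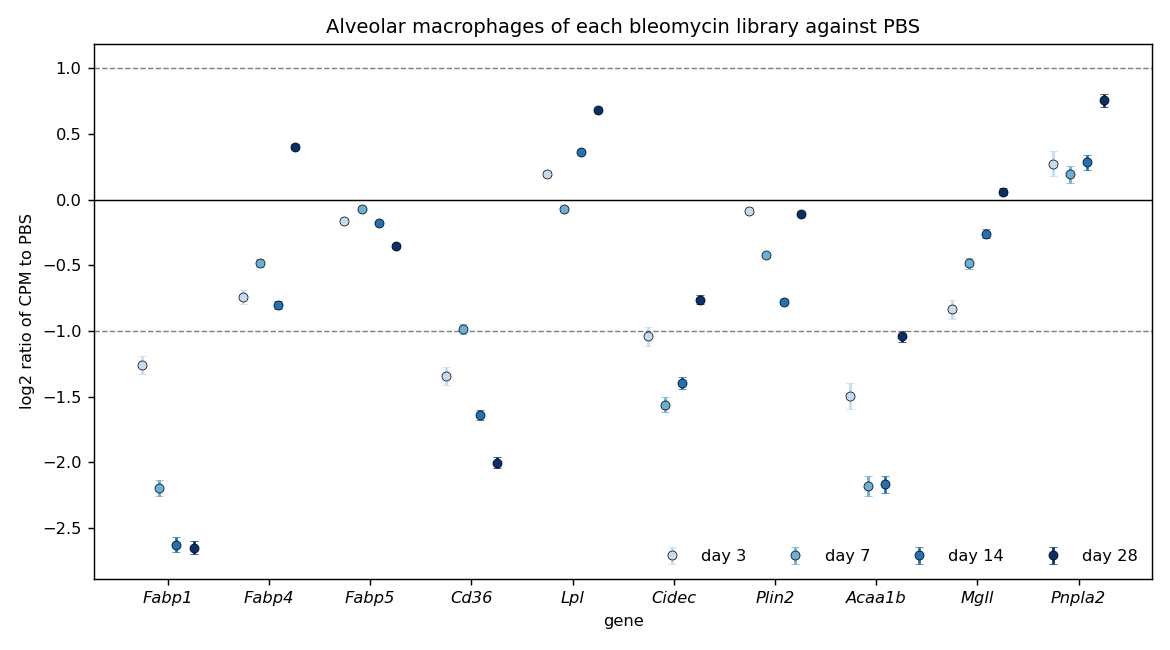
Log2 ratio of the CPM in AMs of each bleomycin library to that of the PBS library for the 10 genes. Bars are 95% intervals for counting error, and dashed lines mark 2-fold. *Fabp1*, *Cd36*, *Cidec* and *Acaa1b* lie near or below the lower line on most days, whereas *Lpl* and *Pnpla2* lie above 0 on day 28.

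Gpnmb-high AMs were set against the other AMs of the same library, in the 4 libraries with 20 or more of both. The Gpnmb-high AMs numbered 134 in the PBS library, 47 on day 7, 51 on day 14 and 271 on day 28. *Fabp1*, *Cidec* and *Acaa1b* were lower in Gpnmb-high AMs of all 4 libraries (28.7% of 11598 genes). *Fabp4*, *Fabp5*, *Cd36*, *Plin2*, *Mgll* and *Pnpla2* were higher in all 4 (8.85% of genes), although the interval for *Pnpla2* on day 7 includes no difference. The members were selected on their levels across types, so these counts are not a result about them. *Fabp1* was at 56.6 CPM in Gpnmb-high AMs of the PBS library, 7.83-fold below the other AMs, and 2.44-fold to 2.83-fold below them at days 7, 14 and 28. *Cd36* was 1.75-fold and 1.97-fold higher in the PBS and day 7 libraries but 3.60-fold and 4.27-fold higher on day 14 and day 28. *Lpl* went both ways, being 2.21-fold lower in Gpnmb-high AMs of the PBS library and 1.45-fold and 1.23-fold higher on day 14 and day 28. Gpnmb-high AMs had higher median UMIs per cell than AMs in each of these libraries (21268.5 against 16472.5 in the PBS library), and their summed alveolar markers were at 10618 to 18670 CPM. The part of either in these ratios was not tested.

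Cycling AMs of the PBS library had 312 CPM of *Fabp1*, 1399 CPM of *Lpl* and 155 CPM of *Acaa1b*, against 443, 2174 and 251 CPM in AMs. How many of all genes were lower in cycling AMs was not counted, so these gaps cannot be called particular to the members. Median UMIs per cell were 22244 in cycling AMs and 16472.5 in AMs of that library. At day 28 *Fabp1* was at 73.2 CPM in cycling AMs and 70.5 CPM in AMs, so the gap seen for *Fabp1* in the PBS library was not seen there. Gpnmb-high macrophages with low alveolar and C1q genes had *Cidec* at 0 to 8.69 CPM and *Acaa1b* at 1.62 to 24.9 CPM but *Mgll* at 49.1 to 205 CPM, well above the 1.13 to 36.2 CPM of C1q IMs.

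The wider pathway was described with 96 other genes in 5 lists, which were chosen with earlier results of these data known. Between AMs and C1q IMs, 85 were tested, of which 55 were higher in AMs and 6 lower past an adjusted p of 0.05 (edgeR quasi-likelihood test, library as a block, 5 libraries), where 20.5% of all 12069 genes were higher and 19.7% lower. The median log2 fold change was 0.59 over the 85 genes and -0.01 over all genes. Of the 16 tested genes of droplet coating and triglyceride synthesis 11 were higher, as were 20 of 29 genes of fatty acid oxidation, 7 of 11 lipases, 9 of 17 genes of uptake and activation and 8 of 12 regulators. The largest was *Pnpla3*, a relative of *Pnpla2*, at a log2 fold change of 5.11 (SE 0.47, adjusted p = 0.000258). *Cideb*, a relative of *Cidec*, was higher by 3.66 on the log2 scale (SE 0.29, adjusted p = 0.000144), and *Plin1*, the perilipin of fat cells, by 3.47 (SE 0.52, adjusted p = 0.00177). The level of *Plin1* was low, as the 4 adipocyte markers, of which it is 1, summed to at most 3.08 CPM in AMs. *Acot1*, an acyl-CoA thioesterase, was higher by 3.12 and *Lpin1*, which makes diacylglycerol, by 2.80 on the log2 scale. Of the genes lower in AMs, *Fabp3* and *Fabp7* are further fatty acid-binding proteins, with log2 fold changes of -4.86 and -2.96 (adjusted p = 9.97e-05 and 0.0106). The scavenger receptor *Msr1* (-1.23), the transporter *Slc27a1* (-0.94), *Agpat2* (-0.85) and *Eci1* (-0.44) complete the 6, the last of which was outside the 5 named by rule. *Pparg*, the receptor that drives lipid handling in AMs, was higher by 2.32 on the log2 scale (SE 0.26, adjusted p = 0.000488) and was likewise chosen after its value was seen.

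**Figure D4:**
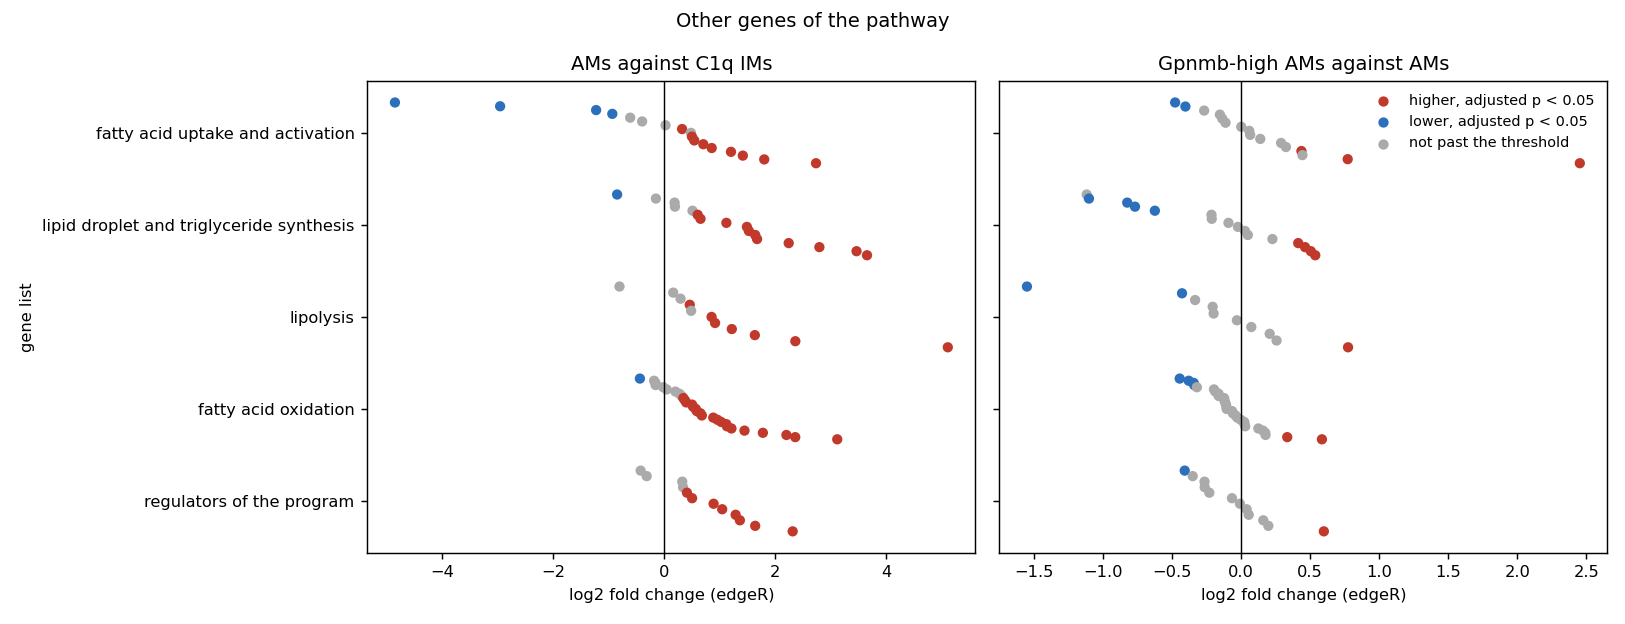
Log2 fold change (edgeR) of the other pathway genes, by list, for AMs against C1q IMs on the left and Gpnmb-high AMs against AMs on the right. Each point is 1 gene, red where higher and blue where lower past an adjusted p of 0.05. On the left 55 genes are red and 6 blue, and on the right 11 are red and 13 blue.

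Between Gpnmb-high AMs and AMs the pathway was mixed, as 11 of 83 tested genes were higher and 13 lower in 4 libraries, with 6.75% of all 11598 genes higher and 5.73% lower. Among the higher genes were *Fabp7* (log2 fold change 2.45, SE 0.23, adjusted p = 5.24e-05), the lysosomal lipase *Lipa* (0.77, SE 0.07, adjusted p = 5.89e-05), *Slc27a1* (0.77), the regulator *Bhlhe41* (0.60) and *Acadl* (0.58), a dehydrogenase of fatty acid oxidation. Among the lower genes were *Pnpla3* (-1.55, SE 0.34, adjusted p = 0.0113), *G0s2*, an inhibitor of ATGL (-1.10, adjusted p = 0.0284), and *Gpat3*, *Dgat2* and *Lpin1* of triglyceride synthesis (-0.83, -0.77 and -0.63). By list, 4 of 16 genes of droplets and triglyceride synthesis were higher and 4 lower, 2 of 29 oxidation genes were higher and 4 lower, and 1 of 10 lipases was higher and 2 lower. For uptake and activation 3 of 16 were higher and 2 lower, and for regulators 1 of 12 was higher and 1 lower. Without the library block none of the 83 passed, 19 having an unadjusted p under 0.05.

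The reporter was not used to choose the members, so they were tested on it. AMs and Gpnmb-high AMs with 3 or more RFP UMIs were compared with those with 0, within the 4 bleomycin libraries. There were 160 and 204 such cells on day 3, 226 and 593 on day 7, 1043 and 115 on day 14, and 1054 and 813 on day 28. *Fabp1* was lower in reporter-positive cells, with a log2 fold change of -0.56 (SE 0.10, adjusted p = 0.0124, edgeR), and so was *Cidec* (-0.56, SE 0.07, adjusted p = 0.00274). These were the 2 members of 10 that passed, next to 1.21% of 10653 genes higher and 0.385% lower. The other 8 members did not pass. Values for *Acaa1b* were -0.26 (SE 0.11, adjusted p = 0.383), for *Mgll* -0.16 (SE 0.06, adjusted p = 0.298) and for *Fabp5* 0.16 (SE 0.08, adjusted p = 0.530), and those of *Fabp4*, *Cd36*, *Lpl*, *Plin2* and *Pnpla2* lay between -0.08 and 0.11. For *Plin2* the estimate ± 2 SE ran from -0.10 to 0.07 and for *Lpl* from -0.13 to 0.23. Without the library block no member passed, nor did any of the 10653 genes, and 1 member had an unadjusted p under 0.05. Without the day 7 library the adjusted p for *Fabp1* was 0.0748 (edgeR). With cells thinned to 2000 UMIs, where the classes were 1 or more RFP UMIs against 0, it was 0.0825. That setting changed both the depth and the limit for reporter-positive cells.

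The contrast was wider in cells with many reporter UMIs. With 10 or more RFP UMIs against fewer than 3, a comparison chosen after the data were seen, *Fabp1* was lower, at -1.08 (SE 0.11, adjusted p = 0.0013), *Cidec* at -1.37 (SE 0.09, adjusted p = 7.13e-05) and *Acaa1b* at -1.16 (SE 0.13, adjusted p = 0.00174), next to 1.52% of 11074 genes higher and 1.44% lower. At day 28 *Fabp1* was at 85.4 CPM in cells with 0 RFP UMIs, 68.0 with 1 to 2, 78.7 with 3 to 9 and 32.7 with 10 or more. *Cidec* was at 214, 212, 176 and 69.9 CPM in the same classes, and *Acaa1b* at 134, 141, 130 and 55.5 CPM. On day 28 the highest class was the lowest for these 3 genes, and *Cidec* was also lower with 3 to 9 than with fewer. In the PBS library, which was not in the test, levels fell with each class. *Fabp1* was at 504, 465, 364 and 179 CPM there, *Cidec* at 357, 333, 251 and 161 CPM and *Acaa1b* at 297, 275, 188 and 111 CPM. Median UMIs per cell rose from 13644 to 28312 over these classes, and their part was not tested. *Lpl* ran the other way in the late libraries, at 4616 CPM in the highest class and 3256 to 3262 CPM in the others on day 28, but at 1408 CPM in the highest class and 1901 to 2173 CPM in the others on day 7. Cells with 0 RFP UMIs also had less *Fabp1* after bleomycin, with 504 CPM in the PBS library and 189, 109, 89.4 and 85.4 CPM from day 3 to day 28.

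The reporter classes were set on raw RFP counts, not scaled to the UMIs of a cell. Reporter-positive cells had more UMIs, with medians of 18596.5 to 25171 against 11682 to 15275 in reporter-negative cells. Gpnmb-high AMs made up 3.36% to 13.7% of the first and 1.47% to 6.77% of the second. With Gpnmb-high AMs left out, *Fabp1* was at -0.57 (adjusted p = 0.0103) and *Cidec* at -0.54 (adjusted p = 0.00116). Reporter UMIs were also found in B cells, of which 77.9% in the PBS library and 46.5% on day 14 had 0 RFP UMIs. On day 3, B cells with 10 or more RFP UMIs had a median of 17899 UMIs, and those with 0 had 5747.5. Whether the reporter UMIs in B cells came from free RNA or doublets was not tested. On day 14, 13.9% of B cells had 3 to 9 RFP UMIs, as did 28.1% of AMs and Gpnmb-high AMs in the PBS library. The limit of 3 UMIs is thus reached by B cells, which should lack the reporter, and cells with few RFP UMIs cannot be assigned by origin. The limit of 10 UMIs was reached by 2.04% of B cells on day 3 and 1.29% on day 7. Of AMs and Gpnmb-high AMs, 3.57% and 2.92% reached it on these days, so origin is uncertain there too. In the PBS library it was reached by 0.469% of B cells and 1.60% of AMs and Gpnmb-high AMs. On day 14 and day 28 it was reached by 0% of B cells and by 27.1% and 21.0% of AMs and Gpnmb-high AMs. B cells numbered only 101 on day 14. Median UMIs were 5419 in B cells and 22669.5 in AMs on day 14, and 3313 and 17003 on day 28. The limit is on raw counts, so the 0% does not show that it separates cells by origin.

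**Figure D5:**
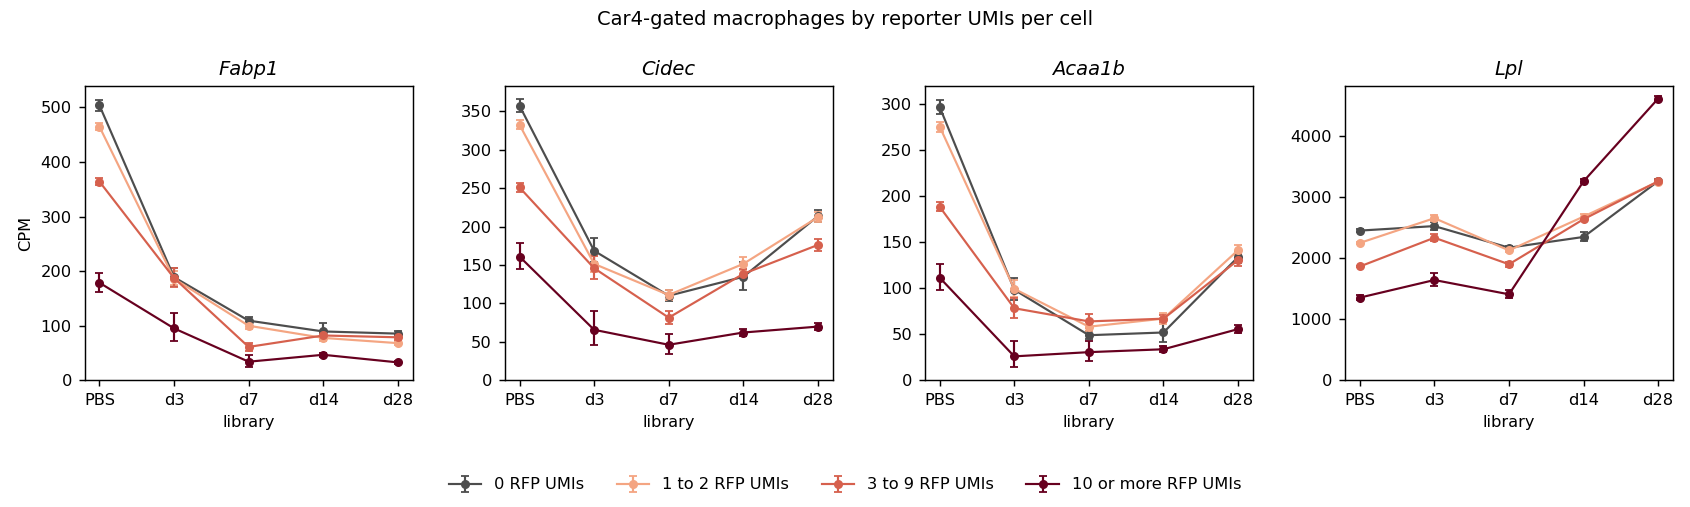
CPM of *Fabp1*, *Cidec*, *Acaa1b* and *Lpl* in AMs and Gpnmb-high AMs of each library, by RFP UMIs per cell, with 95% Poisson intervals. Cells with 10 or more RFP UMIs are lowest for *Fabp1*, *Cidec* and *Acaa1b* in all 5 libraries and highest for *Lpl* on day 14 and day 28.

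Likeness was measured as Pearson r of log2(CPM + 10) over 32 profiles, each a macrophage or monocyte type with 50 or more cells in a library, among 3149 genes that reached 100 CPM. The profiles share libraries and depth, and r is a description. *Cidec* and *Acaa1b* were most like each other (r = 0.98). *Fabp1* was nearest to *Krt79* (0.97), *Cidec* (0.97) and *Car4* (0.96), of which *Krt79* and *Car4* are alveolar gating markers. *Cidec* was further near to *Cpne5* and *Krt79* (both 0.98), and *Acaa1b* to *Krt19* and *Krt79* (both 0.98). *Fabp5* was nearest to the lysosomal gene *Cd63*, to *Gpnmb* and to *Fnip2* (0.95, 0.95 and 0.94), and its r with *Fabp1* was -0.10. *Krt19* and *Gpnmb* are gating markers as well, so these likenesses are not independent of the gates. *Lpl* was nearest to *Agap1*, *Ptgfrn* and *Actn1* (all 0.96), and *Mgll* to *Rora*, *Slc36a4* and *Abcc5* (all 0.96). Weaker were *Fabp4* with *Tgfbr2*, *Abhd12* and *Cd36* (0.88, 0.88 and 0.86), *Cd36* with *Fabp4*, *Vwf* and *Itgb2* (0.86, 0.82 and 0.79), and *Plin2* with *Gpr137b*, *Tcirg1* and *Clcn7* (0.89, 0.88 and 0.87). *Pnpla2* was nearest to *Bnip3l*, *Fabp4* and *Itgb2* (0.86, 0.84 and 0.83).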

How the data were processed

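The authors deposited UMI counts for each gene in each barcode, made with Cell Ranger 6.0.0 on mm10 per the labels, and these are not normalized. The matrix headers name another software version, and some gene symbols are older than those of the named reference. The matrix holds barcodes called as cells, before filters or doublet removal. A barcode was kept when it had between 300 and 8000 genes, between 800 and 60000 UMIs and a mitochondrial share under 15%. Cells were gated on UMIs per 10000 of fixed marker genes, such as *Car4*, *Krt79*, *Ear1*, *Siglecf*, *Krt19* and *Plet1* (10 or more) for AMs, C1q genes (20 or more) for C1q IMs and *Gpnmb*, *Mmp12* and *Mfge8* (20 or more) for the Gpnmb-high types. The thresholds were set after the data were seen, and 3.84% of alveolar-gated cells lay within 25% of the alveolar threshold. The members and gene lists were chosen with earlier results of these data known. Doublets were kept in the main values and removed with Scrublet (scanpy 1.11.5) as an alternative.

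UMIs were summed per type and library with at least 20 cells. Counts were tested with edgeR 4.0.16 (quasi-likelihood test, TMM, filter on low counts, library as a block) in R 4.3.3, adjusted by Benjamini-Hochberg over all genes tested. The script was tested on simulated data. Types of 1 library share their cells' source, and nothing states that libraries are separate animals, so p-values measure the spread between these libraries. Genes were named by rule, as the 10 members, the 5 largest changes each way of the pathway lists among those past the threshold, and the 3 genes nearest to each member. *Gpat3* is listed under an older symbol and was matched by its Ensembl identifier, and all 96 pathway genes were found. Intervals are exact Poisson for levels and exact binomial for ratios and shares, and floors are 3 counts. UMIs remove PCR copies, so both cover counting error only. Gene positions are from GENCODE M21 and promoters from RefSeq. Alternatives were DESeq2 1.42.0, all genes without the filter, libraries without the block, leaving out each library in turn, Scrublet, a mitochondrial limit of 10%, stricter gates, CPM averaged over cells, a floor at the fewest UMIs of the day 7 library, genes at 10 CPM or more, and cells thinned to 2000 UMIs. For the reporter, thinned cells were compared as 1 or more RFP UMIs against 0. Added after the data were seen were 10 or more RFP UMIs against fewer than 3, and Gpnmb-high AMs left out. Scripts also used Python 3.11.15.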

Additional observations from a re-analysis of the deposited data

Results flagged for a closer look

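In comparisons of AMs with C1q IMs and of Gpnmb-high AMs with AMs within a library, effects of opposite sign in different libraries were found for 3 members. With 1 library per time point the difference between libraries was not tested, and the intervals cover counting error only. *Fabp5* was higher in AMs than in C1q IMs of the PBS library (log2 ratio 1.72, 95% interval 1.57 to 1.87) and lower at day 7 (-0.42, -0.43 to -0.40). *Cd36* was higher in AMs than in C1q IMs at day 7 (1.67, 1.59 to 1.76) and lower at day 28 (-0.49, -0.59 to -0.40). *Lpl* was higher in Gpnmb-high AMs than in AMs at day 14 (0.53, 0.50 to 0.57) and lower in the PBS library (-1.14, -1.20 to -1.09).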

How the results depend on the processing

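The number of members at least 2-fold higher in AMs than in C1q IMs of every library stayed within 1.5 times its value under every alternative run. The number lower in AMs at day 3 was 4 and became 2 with CPM averaged over cells and 2 with cells thinned to 2000 UMIs, and the counts of the other days stayed within 1.5 times under all alternatives. For pathway genes of AMs against C1q IMs, 46 to 57 were higher and 5 to 9 lower with 1 library left out, against 55 and 6. For Gpnmb-high AMs against AMs, 11 were higher and 13 lower, with 20 lower without the filter on low counts, 0 higher and 0 lower without the library block, and 7 to 11 higher and 7 to 14 lower with 1 library left out. The lowest counts were without day 14 (7 higher, 8 lower) and without day 28 (7 lower). Stricter gates could not be fitted there because fewer than 2 libraries kept 20 cells of both types. Of the members on the reporter, 2 were lower and 0 higher. Without the filter 1 was higher (*Fabp5*), and without the library block 0 were lower (1 at an unadjusted p under 0.05). With 1 library left out 1 to 3 were lower (1 without day 7, 3 without day 28). With thinned cells, compared as 1 or more RFP UMIs against 0, 1 was lower. In DESeq2 2 were lower. Types and reporter classes were paired by library through the block, and the replicate numbers pair nothing further. Precision is limited by 1 library per time point and by the few cells of some types, and the causes of these shifts were not tested.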
